A study of Mus musculus with 6 samples.

Results

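Interferon-stimulated genes encode the proteins with which a cell blocks viruses and other intracellular microbes. Interferons bind receptors at the cell surface, Janus kinases activate STAT proteins, and activated STAT proteins, together with IRF9, bind the interferon-stimulated response element in the promoters of these genes. Fibroblasts keep many of them at a low constitutive level and can induce them strongly. The 59 genes described here are effectors of that response: the IFIT, OAS, MX, guanylate-binding (GBP), immunity-related GTPase (IRG), IFITM, TRIM and PARP families, the cytosolic RNA sensors, the ISG15 system and single genes such as Ifi44 and Tor3a. The rule that selects them is a list of symbols, which was drawn up with earlier results of these data known, and all 59 were found among the 54752 genes of the table.

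The cells were mouse embryonic fibroblasts, of a line labelled as p53-deleted and cultured in DMEM with serum. The shARF cells were infected with a lentivirus carrying an shRNA against p19ARF (genotype label ARF knockdown), and the control cells with one carrying a negative control shRNA (the shNT cells, genotype label WT). The 3 shARF and 3 shNT libraries are labelled as biological replicates. Whether each replicate was infected or cultured separately is not stated by the labels. The p-values therefore rest on the spread between these libraries, which may be technical. The title of the series names repression of oncogenic transcription by ARF after loss of p53 as its subject. No group was labelled as treated with interferon or infected with a virus other than the vector.

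The libraries held 45226639 to 46305826 counts in shARF and 40261944 to 47023082 counts in shNT. The target of the hairpin, Cdkn2a, had 95.6, 103 and 107 CPM in shARF and 231, 218 and 223 CPM in shNT (counts per 1e6 counts, CPM, scaled between libraries), so that 45.5% of its shNT level remained. These counts take all transcripts of the gene together, so the share of the p19ARF transcript that remained is not known. On the log2 scale Cdkn2a fell by 1.14 (SE 0.05, edgeR adjusted p = 2.52e-06). An exact permutation of the libraries, two-sided, gave p = 0.1, and 3 against 3 libraries cannot go lower. Trp53 had 2.08 to 3.02 CPM in shARF and 1.43 to 3.63 CPM in shNT (adjusted p = 0.674). The groups also differed in genes that mark the origin of a culture. Xist, expressed from the inactive X chromosome, had 40.7 to 54.3 CPM in shARF and 360 to 413 CPM in shNT. The Y-linked Kdm5d had 18.8 to 19.9 CPM in shARF and 0.534 to 0.923 CPM in shNT, and the Y-linked Ddx3y had 80.7 to 88.9 CPM in shARF and 22.8 to 26 CPM in shNT. Hoxb9, which marks body position, had 5.79 to 6.9 CPM in shARF and 99.1 to 105 CPM in shNT. These differences follow the same split of the libraries as the hairpin and cannot be told apart from it. Their part in the interferon-stimulated genes was not tested. Of 9 fibroblast markers all were tested, with summed levels of 24256 to 24528 CPM in shARF and 20992 to 22619 CPM in shNT, although Pdgfra (log2 fold change -2.46) and Dcn (-2.12) fell.

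Interferon-stimulated genes can also come from leukocytes, so markers of such cells were read. Of 10 macrophage and leukocyte markers, 5 had no count in any library, among them Adgre1, Itgam and Tyrobp, and Ptprc had counts in 1 shNT library alone. The 10 summed to 3.94 to 5.11 CPM in shARF and 9.6 to 11 CPM in shNT, mostly Csf1r and Cd14, which both fell in shARF. Of 6 dendritic cell markers, 5 had no count, and the sum of 8.46 to 9.73 CPM in shARF against 5.06 to 6.75 CPM in shNT was Cd74 alone. Endothelial markers summed to 3.95 to 4.59 CPM in shARF and 5.45 to 6.29 CPM in shNT, and epithelial markers to 7.05 to 7.73 CPM in shARF and 15.3 to 17.5 CPM in shNT. Single markers within these sums went both ways. Of the endothelial list, Kdr rose (3.13 CPM in shARF, 0.282 CPM in shNT) while Tek and Erg fell. Of the epithelial list, Cdh1 rose (4.8 CPM in shARF, 2.14 CPM in shNT), Krt14 rose (1.91 CPM in shARF, no count in shNT) and Krt18 fell (0.15 CPM in shARF, 12.7 CPM in shNT). Their part in the results below was not tested.

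The sequences upstream of these genes were searched for control elements that they share. The interferon-stimulated response element was searched as its core, GAAA followed by 2 bases of any kind and GAAA again, on both strands, in windows of 300 bases, from 250 bases before to 50 bases after the start site, taken from RefSeq (build GRCm38.p6). Of the 42 members with a window in that table, 25 (59.5%) held the core, against 3.99% of all 27025 genes of the table. Excerpts of 80 bases are printed for 7 genes on which the results below turn, in capitals where the core or overlapping copies of it lie. A match describes these letters only and does not show that a factor binds there. Ifit1, Isg15, Trim30a and Gbp7 rose in shARF, and Ifit3 and Ifi203 fell.

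Ifit1 (chr19:34640759-34640838, plus strand): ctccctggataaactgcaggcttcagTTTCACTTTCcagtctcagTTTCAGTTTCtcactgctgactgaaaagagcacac
Ifit3 (chr19:34583355-34583434, plus strand): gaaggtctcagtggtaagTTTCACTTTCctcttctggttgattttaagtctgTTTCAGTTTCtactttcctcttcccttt
Ifit3b (chr19:34607751-34607830, plus strand): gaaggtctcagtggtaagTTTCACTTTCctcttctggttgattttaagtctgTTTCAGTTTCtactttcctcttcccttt
Isg15 (chr4:156200846-156200925, minus strand): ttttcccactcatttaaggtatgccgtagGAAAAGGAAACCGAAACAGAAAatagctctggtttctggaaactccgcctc
Trim30a (chr7:104465194-104465273, minus strand): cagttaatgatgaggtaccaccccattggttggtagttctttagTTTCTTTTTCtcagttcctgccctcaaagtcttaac
Gbp7 (chr3:142530248-142530327, plus strand): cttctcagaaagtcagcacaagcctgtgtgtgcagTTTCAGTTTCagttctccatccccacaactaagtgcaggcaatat
Ifi203 (chr1:173942493-173942572, minus strand): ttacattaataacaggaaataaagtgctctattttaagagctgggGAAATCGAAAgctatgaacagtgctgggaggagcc

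The Ifit1 and Ifit3 excerpts each hold 2 matches with the same letters, TTTCACTTTC and TTTCAGTTTC. The excerpts of Ifit3 and Ifit3b are identical over all 80 bases. In Isg15, 3 copies of the core overlap, beginning 78 bases before the start site. The core was present in 7 of 16 members called higher, 5 of 9 called lower, 9 of 13 not called and 4 of 4 not tested that had a window. The second element, the gamma-activated site TTCNNNGAA, which reads the same on both strands, was present in 11 of the 42 members (26.2%), against 9.55% of all genes of the table. It was found in 1 of 16 members called higher (Gbp7) and in 3 of 9 called lower (Eif2ak2, Ifit2 and Ifitm3). Of members not called, 5 of 13 held it, and of those not tested, 2 of 4.

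Most of the 59 genes were at low levels in both groups, and a pair of them carried much of the total. Levels are compared between genes per length, as FPKM (CPM per kb of annotated exon). The median over the 59 genes was 0.754 FPKM in shARF and 0.614 FPKM in shNT. In shARF 26 genes reached 1 FPKM and 6 reached 10 FPKM, against 24 and 5 in shNT. The highest were Ifitm3 and Ifitm2, which encode membrane proteins that block the fusion of viral and cellular membranes. Ifitm3 stood at 218 ± 3.63 FPKM in shARF and 283 ± 11.9 FPKM in shNT (SD, n = 3 each), and Ifitm2 at 181 ± 4.35 FPKM in shARF and 264 ± 13.5 FPKM in shNT.

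Next in shARF came Lgals3bp, a secreted glycoprotein, at 19.2 ± 0.46 FPKM, against 14.1 ± 1.04 FPKM in shNT. Ifi27 (11.8 ± 0.771 FPKM), Eif2ak2 (11.5 ± 0.233 FPKM) and Tor3a (11.1 ± 0.222 FPKM) followed in shARF at levels whose SDs overlap or nearly touch. In shNT the third place belonged to Eif2ak2 (14.9 ± 0.533 FPKM), with Lgals3bp next to it within the SD, and Ifi27 and Tor3a ranked 11 and 12. The order of the levels therefore differed between the groups below Ifitm3 and Ifitm2. At the other end, 11 genes lay under 0.1 FPKM in shARF and 16 in shNT, among them Oas2, Oas3, Mx1 and Gbp5 in both groups.

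**Figure D1:**
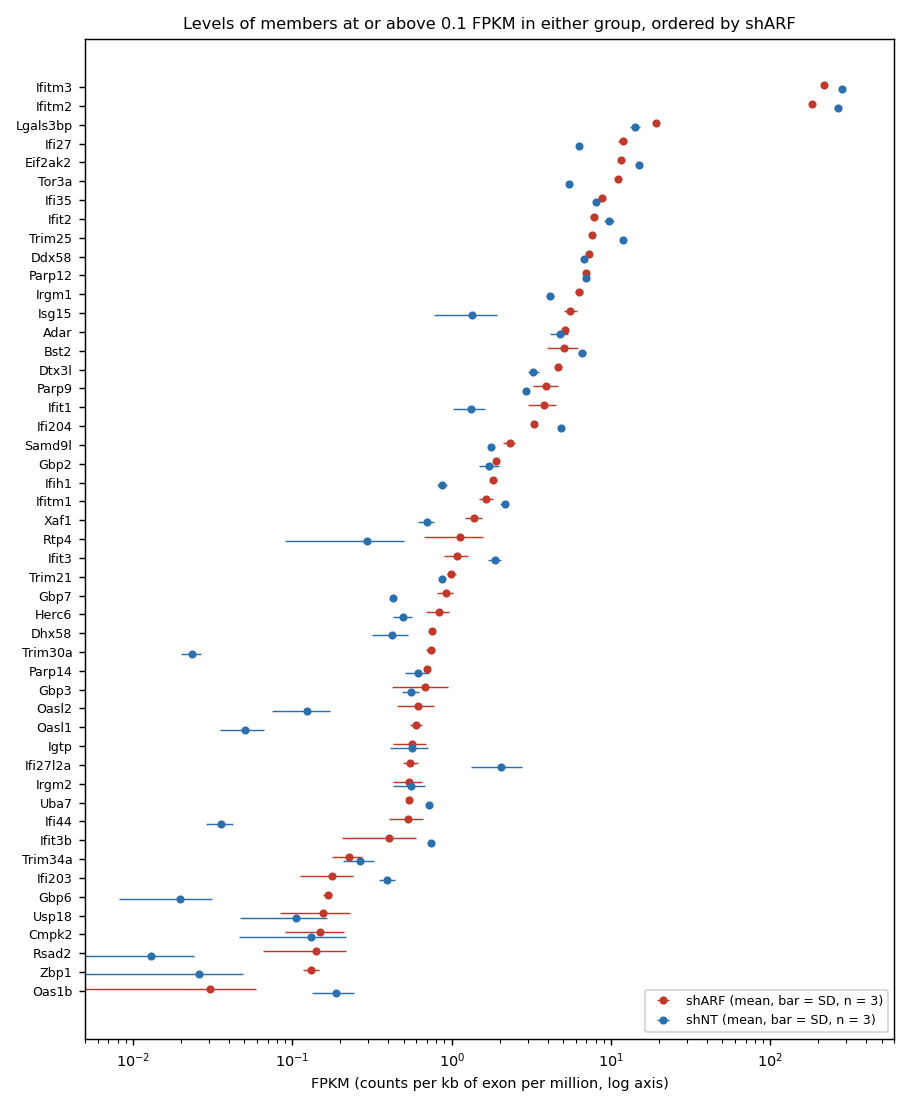
Mean level per length (FPKM, log axis) of the 49 members that reached 0.1 FPKM in either group, in shARF (red) and shNT (blue), ordered by the shARF level, with bars for the SD over 3 libraries. Bars that reach below the range of the axis run to the left edge. Ifitm3 and Ifitm2 stand apart at the top in both groups, and Trim30a, Oasl1 and Ifi44 show the widest gaps among the lower genes.

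Summed over the 59 genes, the libraries held 843, 865 and 880 CPM in shARF and 872, 908 and 915 CPM in shNT, so the ranges of the groups overlapped. Ifitm2 and Ifitm3 gave 30.2 to 32.2% of that sum in shARF and 39.9 to 41.9% in shNT. Without this pair the sum was 571 to 613 CPM in shARF and 521 to 545 CPM in shNT.

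Of the 59 genes, 52 had enough counts to be tested and 7 did not. In shARF 23 of the 52 rose and 12 fell at an adjusted p under 0.05 (edgeR's quasi-likelihood test, Benjamini-Hochberg over all 17128 genes tested), and 17 were not called. In bulk RNA, fewer expressing cells and less RNA per cell cannot be told apart. As shares this is 44.2% higher and 23.1% lower, against a background of 28.8% higher and 27.7% lower over all genes tested (4930 and 4737 genes, or 4023 and 5874 with library sizes alone in place of TMM factors). In either direction 67.3% were called, against 56.4% of all genes. Changes of at least 2-fold were called for 14 genes that rose, against 6.59% of all genes tested, and for 3 that fell, against 7.78%. The groups did not overlap in any library for 40 of the 52, against 64.6% of all genes tested. The median log2 fold change was 0.34 over the 52 and -0.01 over all genes tested. Sp100, which had no count in shNT, lies above the median of the 52 at its lower bound too, so using the bound cannot move that median.

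Because a scarce gene can pass the count filter only through the group in which it is high, the genes were also read by their mean over all 6 libraries. That reading does not remove the effect, since a high group raises the mean too. Trim30a and Ifi44, with at most 0.246 CPM in any shNT library, reached a mean of 1 CPM through shARF alone. Of 40 members with a mean of at least 1 CPM, 18 were called higher and 10 lower, which is 45% and 25%, against 32.9% and 30.5% of the 13725 genes at that level. Of 22 members at 5 CPM or more, 10 rose and 6 fell (45.5% and 27.3%), against 35.6% and 30.7% of 11052 genes. The median log2 fold change of the members was smaller at these levels, at 0.19 from 1 CPM and 0.15 from 5 CPM. Over all genes it was 0.01 and 0.03. At the lower end, 5 of 12 members under 1 CPM rose (41.7%) and 2 fell, against 12.1% and 16.3% of 3403 genes. The 5 that rose (Gbp6, Oasl1, Rsad2, Sp100 and Zbp1) had at most 0.195 CPM in any shNT library. They passed the filter through shARF alone, so their share carries that selection and is no evidence of a rise of the list.

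**Figure D2:**
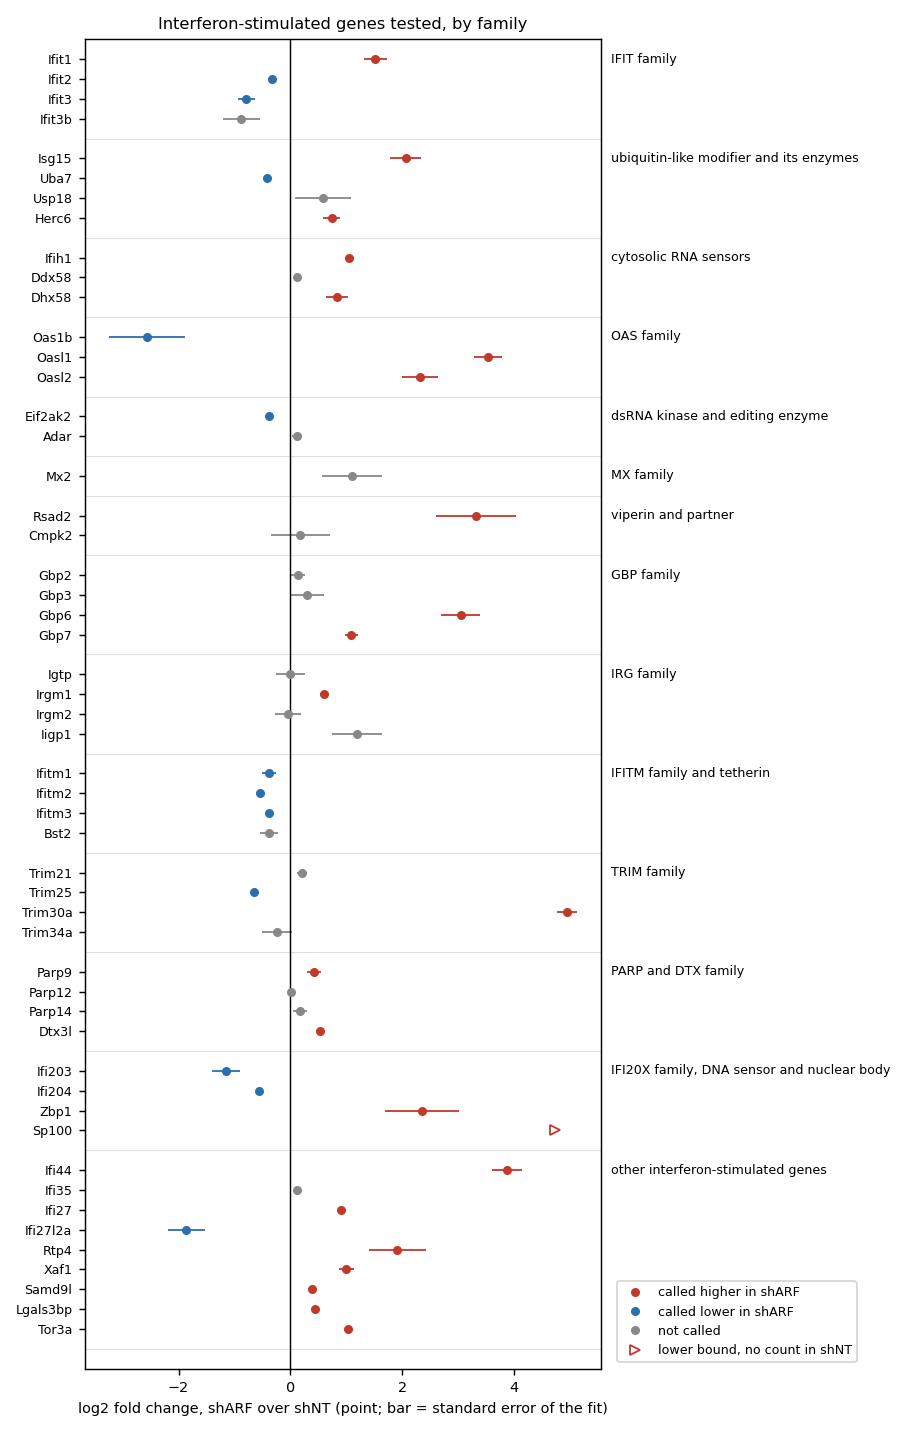
Log2 fold change of shARF over shNT for the 52 members tested, grouped by family, with bars for the standard error of the fit; red points were called higher in shARF, blue points lower and grey points were not called. The open triangle is the lower bound for Sp100, which had no count in shNT. Many families hold points on both sides of zero. The 4 points of the IFITM and tetherin group all lie below it. Those of the RNA sensor, MX, viperin, GBP, and PARP and DTX groups all lie at or above it.

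The cytosolic RNA sensors detect viral RNA and signal through the adaptor MAVS. Ifih1, which encodes MDA5, a sensor of long double-stranded RNA, had 14.5, 14.3 and 15.7 CPM in shARF, against 6.58, 7.29 and 7.56 CPM in shNT. It was about doubled in every shARF library, with a log2 fold change of 1.06 (SE 0.07, adjusted p = 3.21e-05). Dhx58, which encodes the regulatory family member LGP2, had 2.45, 2.51 and 2.44 CPM in shARF and 1.72, 1.01 and 1.43 CPM in shNT (0.83, adjusted p = 0.00985). Ddx58, which encodes RIG-I, was the most abundant of the sensors at 7.29 FPKM in shARF and 6.77 FPKM in shNT, and differed by a log2 fold change of 0.11 that missed the threshold (adjusted p = 0.0625), and was called without shARF replicate 1 (0.14, adjusted p = 0.0353). The ratio of Ifih1 to Ddx58 counts within a library, which does not depend on scaling, was 0.295, 0.269 and 0.303 in shARF and 0.137, 0.155 and 0.157 in shNT.

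The 4 IFIT genes, some of whose products bind viral RNA and block its translation, lie in 1 cluster of 99.3 kb on chromosome 19 (34550694 to 34650009, GRCm38). In shARF 1 of them rose, 2 fell and 1 was not called. Ifit1 had 8.15, 9.83 and 12.1 CPM in shARF and 2.85, 3.29 and 4.4 CPM in shNT. Every shARF library lay above every shNT library, with a log2 fold change of 1.52 (SE 0.20, adjusted p = 7.17e-04). Ifit2, at the other end of the cluster and the most abundant of the 4, had 29.4, 29.7 and 32.4 CPM in shARF, against 40.7, 38.9 and 34.9 CPM in shNT, and fell by 0.32 on the log2 scale (adjusted p = 0.00699).

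Ifit3 had 1.54, 2.17 and 1.95 CPM in shARF and 2.89, 3.43 and 3.45 CPM in shNT, and fell by 0.79 (adjusted p = 0.00452). Its copy Ifit3b had 0.424, 0.776 and 1.21 CPM in shARF and 1.48, 1.52 and 1.43 CPM in shNT. Its log2 fold change of -0.88 missed the threshold (adjusted p = 0.0626), and passed it without shARF replicate 3 (-1.30, adjusted p = 0.0114), with limma-voom (adjusted p = 0.0362) and with library sizes alone (0.0444). The 2 copies share 51.2% of the 50-base windows of the Ifit3 transcripts, so reads can have been split between them. The Ifit1 transcripts share 7.06% of their windows with Ifit1bl2.

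**Figure D3:**
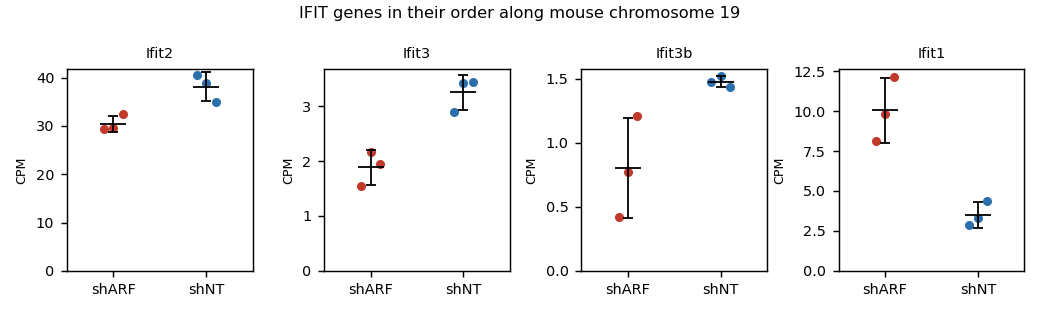
CPM of the 4 IFIT genes in each library (points), with mean and SD (black), shARF left and shNT right, in their order along chromosome 19. Ifit2, Ifit3 and Ifit3b are lower in each shARF library than in any shNT library, and Ifit1 is higher.

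The split within the cluster shows in the ratio of counts inside each library. Ifit1 over Ifit2 was 0.277, 0.331 and 0.375 in shARF and 0.07, 0.0843 and 0.126 in shNT. Ifit1 over Ifit3 was 5.29, 4.54 and 6.24 in shARF and 0.985, 0.958 and 1.27 in shNT. Each ratio gave an exact two-sided permutation p = 0.1, the smallest possible with 3 against 3. Ifit1 lay higher, and Ifit2 and Ifit3 lower, in each shARF library than in any shNT library. The outcome for the ratios was fixed by those values, so it is no separate support. Other genes tested within 5 Mb of the cluster (59 genes) had a median log2 fold change of 0.38.

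Isg15, a ubiquitin-like protein that is joined to other proteins and also secreted, had 3.75, 4.4 and 4.45 CPM in shARF and 0.999, 0.595 and 1.46 CPM in shNT. Every shARF library lay well above every shNT library, and Isg15 rose by 2.06 on the log2 scale (SE 0.28, adjusted p = 8.17e-04). The enzymes of its pathway did not follow as a group. Uba7, which activates ISG15 for transfer, had 3.57, 3.7 and 3.51 CPM in shARF and 4.89, 4.85 and 4.71 CPM in shNT, and fell by 0.42 (adjusted p = 0.00279). Herc6, the mouse ligase for ISG15, rose by 0.74 (adjusted p = 0.00609), with 6.27 to 8.83 CPM in shARF and 4.11 to 5.32 CPM in shNT. Usp18, which removes ISG15 and restrains the interferon receptor, was scarce at 0.245 to 0.649 CPM in shARF and 0.195 to 0.486 CPM in shNT, and the groups overlapped (adjusted p = 0.37).

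The oligoadenylate synthetases make short adenylate chains that activate the nuclease RNase L. Most were close to absent: Oas2 had no count in shARF and 2 counts in shNT, Oas1g had 4 counts in shARF and none in shNT, and Oas1a had 16 and none. Oas3 had 14 counts in shARF and none in shNT, at least 4.76-fold higher if 3 counts, the limit that a count of 0 allows, are taken for the shNT libraries together. These 4 genes were not tested. The transcripts of Oas1a share 57.6% of their 50-base windows with Oas1g.

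The OAS-like genes behaved otherwise. Oasl1 had 1.41, 1.64 and 1.63 CPM in shARF and 0.0869, 0.164 and 0.146 CPM in shNT (log2 fold change 3.53, SE 0.25, adjusted p = 3.13e-05). Oasl2 had 3.1, 3.54 and 5.03 CPM in shARF and 0.456, 0.821 and 1.07 CPM in shNT (2.32, SE 0.32, adjusted p = 8.08e-04). Both were higher in every shARF library than in any shNT library, and they lie next to each other in 41 kb of chromosome 5 (114896936 to 114937915). Oas1b, known in mice as the flavivirus resistance gene and annotated as a polymorphic pseudogene, went the other way, with 8 counts over the shARF libraries and 50 over the shNT libraries (-2.57, adjusted p = 0.0163). Its call was lost without shARF replicate 3 (-2.65, adjusted p = 0.0517), without shNT replicate 1 (-2.44, 0.0519), without shNT replicate 3 (-2.45, 0.0511) and with a replicate block (-2.58, 0.0564), and over 13 alternatives the adjusted p ran between 0.0137 and 0.0564.

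A pair of other enzymes acts on double-stranded RNA. Eif2ak2 encodes PKR, the kinase that stops translation, and was among the 6 most abundant members. It had 59.2, 57.3 and 59.5 CPM in shARF, below the 77.1, 78.7 and 73.4 CPM in shNT, and fell by 0.38 (SE 0.04, adjusted p = 1.93e-04). Adar, which edits adenosine to inosine, had 40 to 43.5 CPM in shARF and 34.9 to 44.1 CPM in shNT, and was not called (0.12, adjusted p = 0.311). Without shNT replicate 2, its highest shNT library, it was called higher (0.23, adjusted p = 0.0192, the lowest of 15 alternatives that reached 0.822). Chrnb2 exons on the other strand cover 16.8% of the Adar exons, and whether strand was used in counting is not known here.

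The MX proteins are dynamin-like GTPases that trap viral particles. Mx1 had 6 counts over the shARF and 26 over the shNT libraries and was not tested, and Mx2 had 0.201 to 0.47 CPM in shARF and 0.0652 to 0.267 CPM in shNT and was not called (1.10). Rsad2, which encodes viperin, a maker of a chain-terminating nucleotide, had 0.357, 0.981 and 0.492 CPM in shARF and 0.0869, 0.0821 and 0 CPM in shNT. It rose with a log2 fold change of 3.32 (SE 0.72, adjusted p = 0.00672) on 81 counts over shARF and 8 over shNT. Cmpk2, a mitochondrial nucleotide kinase beside Rsad2 on chromosome 12, had 0.335 to 0.783 CPM in shARF and 0.261 to 0.944 CPM in shNT, and the groups overlapped (0.17, adjusted p = 0.805).

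The guanylate-binding proteins are large GTPases that attack the vacuoles of intracellular bacteria and parasites. Gbp7 had 4.46, 5.47 and 5.53 CPM in shARF and 2.35, 2.53 and 2.38 CPM in shNT, about double in each shARF library (1.09, SE 0.11, adjusted p = 2.09e-04). Gbp2, in the same 144 kb cluster on chromosome 3 (142493978 to 142638008), had 4.59 to 4.86 CPM in shARF and 3.65 to 4.88 CPM in shNT (0.13, adjusted p = 0.378). Gbp3 had 1.32 to 3.01 CPM in shARF and 1.56 to 1.94 CPM in shNT (0.30, adjusted p = 0.426), and was called without shARF replicate 1 (0.57, adjusted p = 0.0428, the lowest of 14 alternatives that reached 0.959). Gbp5, from the same cluster, had 32 counts over shARF and 2 over shNT and was not tested. Gbp7 over Gbp2 counts were 0.926, 1.13 and 1.2 in the shARF libraries and 0.643, 0.564 and 0.488 in the shNT libraries.

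Gbp6, on chromosome 5, had 1.03, 0.912 and 1.03 CPM in shARF and 0.195, 0.0821 and 0.0729 CPM in shNT (3.04, SE 0.35, adjusted p = 3.29e-04). Its transcripts share 70.7% of their 50-base windows with other genes, among them 65% with Gm43302, so its counts may hold reads of those copies. For Gbp7 the share was 12.7%, among them 10.5% with Gm43802.

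The immunity-related GTPases work on the same vacuoles, with Irgm1, Irgm2 and Igtp as regulators and Iigp1 as an effector. Irgm1 was by far the most abundant, at 6.31 FPKM in shARF and 4.14 FPKM in shNT, whereas Irgm2 stood at 0.539 FPKM in shARF and 0.558 FPKM in shNT. It had 35.3, 39.1 and 35.6 CPM in shARF and 23.6, 25.5 and 23 CPM in shNT, and rose by 0.61 (SE 0.06, adjusted p = 1.86e-04). Igtp (1.13 ± 0.268 CPM in shARF, 1.13 ± 0.3 CPM in shNT) and Irgm2 (1.99 ± 0.409 CPM in shARF, 2.06 ± 0.467 CPM in shNT) were not called and their groups overlapped. Iigp1 had 0.312, 0.684 and 0.537 CPM in shARF and 0.13, 0.205 and 0.34 CPM in shNT. Its log2 fold change of 1.19 missed the threshold (adjusted p = 0.0572), and passed it without shARF replicate 1 (1.45, adjusted p = 0.0343), without shNT replicate 3 (1.58, 0.0376) and with a replicate block (1.20, 0.0465).

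Of the IFITM family and tetherin, 3 of 4 genes fell and the other was not called. Ifitm3 had 150, 145 and 147 CPM in shARF and 186, 189 and 201 CPM in shNT, and fell by 0.38 (SE 0.04, adjusted p = 1.18e-04). Ifitm2 had 121, 116 and 119 CPM in shARF and 164, 174 and 182 CPM in shNT, and fell by 0.54 (SE 0.04, adjusted p = 4.95e-05). For both, the SD in shARF was under 3% of the mean and the groups lay well apart. Other genes share 48.5% of the 50-base windows of Ifitm2 and 10% of those of Ifitm3.

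Ifitm1, from the same 55.9 kb of chromosome 7 (140954837 to 141010770), had 1.87, 1.6 and 1.95 CPM in shARF and 2.19, 2.44 and 2.4 CPM in shNT, and fell by 0.38 with an adjusted p of 0.0381. That call was lost in 8 of 14 alternatives, whose adjusted p ran from 0.0161 to 0.193. Among them, leaving out shARF replicates 1, 2 or 3 gave adjusted p of 0.0722, 0.111 and 0.0533, and leaving out shNT replicates 2 or 3 gave 0.106 and 0.0853. Bst2, which encodes tetherin, the protein that holds budding virus at the cell surface, had 3.44, 5.27 and 5.01 CPM in shARF and 5.58, 6.14 and 6.17 CPM in shNT. Its log2 fold change of -0.38 missed the threshold (adjusted p = 0.0862), and passed it with library sizes alone (-0.47, adjusted p = 0.0428).

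Most TRIM proteins are ubiquitin ligases, and here they held both the largest rise among the members with counts in both groups and a clear fall. Trim30a, which in mice dampens NF-kB signalling, had 2.92, 2.94 and 3.27 CPM in shARF and 0.109, 0.0821 and 0.0972 CPM in shNT. Its 406 counts over shARF against 13 over shNT gave a log2 fold change of 4.95 (SE 0.18, adjusted p = 1.64e-06). Its neighbour Trim34a, in the same 221 kb of chromosome 7, had 0.447 to 0.692 CPM in shARF and 0.521 to 0.821 CPM in shNT (-0.24, adjusted p = 0.483), and the 100 other genes tested within 5 Mb of the pair had a median of 0.01. Trim30d shares 5.98% of the windows of Trim30a.

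Trim25, the ligase that helps RIG-I signal, had 43.1, 45.1 and 41.9 CPM in shARF and 65.2, 69.6 and 68.8 CPM in shNT, and fell by 0.65 (SE 0.05, adjusted p = 3.1e-05). Trim21, a cytosolic antibody receptor, had 3.41 to 3.85 CPM in shARF and 3.15 to 3.26 CPM in shNT (0.20, adjusted p = 0.103). Trim14, an adaptor at mitochondria, had 15 counts over shARF and none over shNT, at least 5.1-fold higher with 3 counts taken for shNT. It was not tested, and genes on the other strand, among them Nans, cover 38% of its exons.

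**Figure D4:**
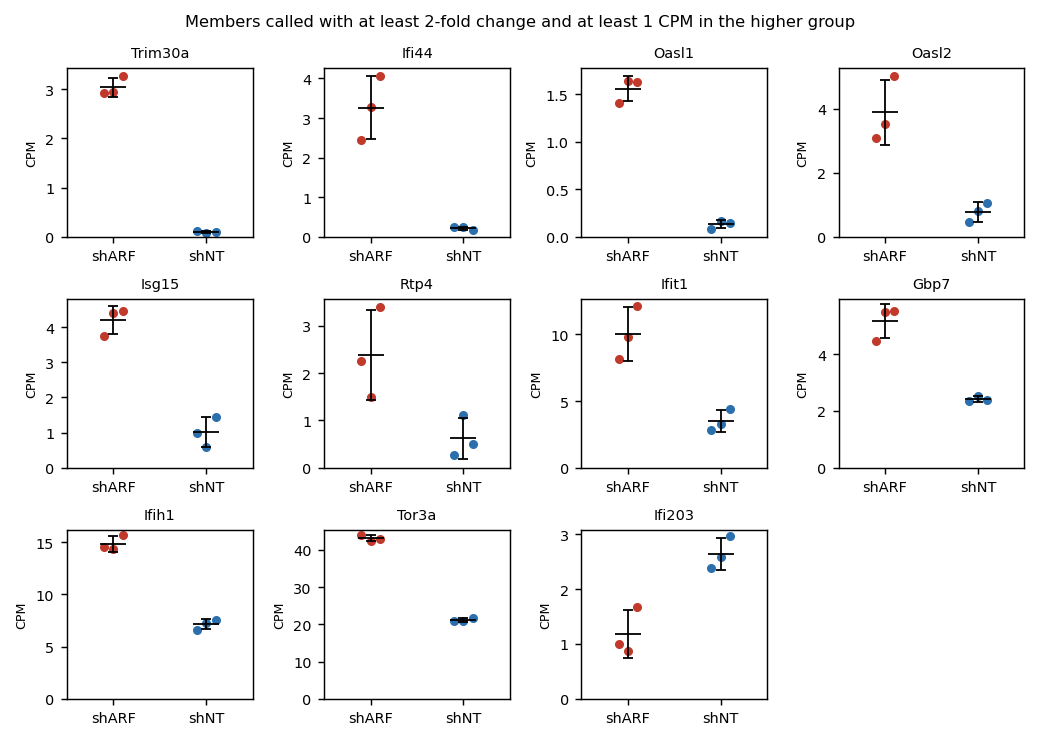
CPM in each library (points) with mean and SD (black), shARF left and shNT right, for the 11 members called with a change of at least 2-fold and at least 1 CPM in the higher group, in order of their log2 fold change. In each panel the shARF points and the shNT points occupy separate ranges, and Ifi203 alone is lower in shARF.

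Among the ADP-ribosylating enzymes, Parp9 and Dtx3l form a complex and are transcribed from 1 shared promoter region on opposite strands. Dtx3l had 25.2, 28 and 27 CPM in shARF and 19.8, 19.1 and 17 CPM in shNT, and rose by 0.52 (SE 0.07, adjusted p = 8.59e-04). Parp9 had 15.3, 21.2 and 20.9 CPM in shARF and 13.7, 14.9 and 14.3 CPM in shNT, and rose by 0.42 (adjusted p = 0.0286). The Parp9 call was lost with library sizes alone (0.33, adjusted p = 0.0654) and without shARF replicates 2 or 3 (0.34 and 0.35, adjusted p = 0.0843 and 0.0872) or shNT replicates 1, 2 or 3 (0.0866, 0.0558 and 0.0757). Over its 15 alternatives the adjusted p lay between 6.63e-04 and 0.0872. Dtx3l exons on the other strand cover 9.4% of the Parp9 exons, and Parp9 exons cover 8% of those of Dtx3l. Parp14 (6.46 ± 0.163 CPM in shARF, 5.71 ± 0.958 CPM in shNT, adjusted p = 0.278) and Parp12 (28 ± 0.748 CPM in shARF, 27.9 ± 1.24 CPM in shNT, adjusted p = 0.95) were not called.

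Nucleic acid binding proteins of the nucleus and cytosol went both ways. Ifi203, of the interferon-inducible PYHIN family of DNA-binding proteins, had 1, 0.867 and 1.68 CPM in shARF and 2.39, 2.59 and 2.96 CPM in shNT, and fell by 1.16 (SE 0.25, adjusted p = 0.00707). Ifi204, of the same family and cluster on chromosome 1 (173747293 to 173942672), had 11.5, 11.6 and 12.2 CPM in shARF and 17.7, 17.2 and 17.1 CPM in shNT, and fell by 0.56 (SE 0.05, adjusted p = 1.03e-04). The SD of Ifi204 was 0.351 CPM in shARF and 0.344 CPM in shNT, so the gap was many times the spread. Other genes share 20% of the windows of Ifi204 and 12.4% of those of Ifi203.

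Sp100, a core protein of nuclear bodies, had 0.759, 0.456 and 0.537 CPM in shARF (78 counts) and no count in any shNT library. With 3 counts taken for the shNT libraries together it was at least 26.5-fold higher (adjusted p = 8.76e-04), a bound that covers counting error only. Zbp1, a sensor of Z-form nucleic acids that triggers cell death, had 62 counts over shARF and 12 over shNT (2.35, SE 0.66, adjusted p = 0.0206). Its call was lost without shARF replicate 1 (2.27, adjusted p = 0.061), without shARF replicate 2 (2.33, 0.0558) and with a replicate block (2.43, 0.0531). Over its 13 alternatives the adjusted p lay between 0.00889 and 0.061.

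Of the 9 remaining genes, 7 rose, 1 fell and 1 was not called. Ifi44 had 2.45, 3.28 and 4.05 CPM in shARF and 0.239, 0.246 and 0.17 CPM in shNT, with the groups far apart (3.87, SE 0.27, adjusted p = 2.8e-05). Tor3a, an ATPase of the endoplasmic reticulum, had 44.1, 42.4 and 42.8 CPM in shARF and 20.9, 20.8 and 21.7 CPM in shNT (1.03, SE 0.04, adjusted p = 2.45e-06). It was the most abundant member, per length, to change by 2-fold.

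Ifi27, a mitochondrial and nuclear envelope protein, had 16.6, 16.8 and 18.6 CPM in shARF and 9.32, 9.1 and 9.23 CPM in shNT, and rose by 0.91 (SE 0.06, adjusted p = 2.92e-05). Its relative Ifi27l2a, 9.47 kb from end to end with it on chromosome 12, had 0.268, 0.274 and 0.224 CPM in shARF and 0.63, 0.903 and 1.29 CPM in shNT, and fell by 1.87 (SE 0.33, adjusted p = 0.00262). The count ratio of Ifi27 to Ifi27l2a was 61.9, 61.3 and 83.3 in shARF and 14.8, 10.1 and 7.17 in shNT. The 82 other genes tested within 5 Mb had a median log2 fold change of 0.33.

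Rtp4, a chaperone of cell surface receptors, had 2.25, 1.51 and 3.4 CPM in shARF and 0.261, 1.11 and 0.51 CPM in shNT (1.91, SE 0.52, adjusted p = 0.0174). This was the widest relative spread among members above 1 CPM in shARF, at 40% of the mean in shARF and 69.6% in shNT, and the call was lost without shARF replicate 3 (1.57, adjusted p = 0.0572) and without shNT replicate 3 (1.78, 0.0593). Gm45338 shares 11.6% of the windows of Rtp4. Xaf1, a pro-apoptotic protein, had 5.6, 6.87 and 7.07 CPM in shARF and 2.87, 3.26 and 3.64 CPM in shNT (1.00, adjusted p = 6.44e-04). Lgals3bp had 53.4, 54.5 and 56 CPM in shARF and 37.5, 39.5 and 43.3 CPM in shNT (0.45, adjusted p = 6.76e-04). Samd9l, a restrictor of poxviruses and of cell growth, rose by 0.38 (12.5 ± 1.06 CPM in shARF, 9.59 ± 0.27 CPM in shNT, adjusted p = 0.00472). Ifi35 had 15 to 15.7 CPM in shARF and 13.6 to 14.3 CPM in shNT and missed the threshold (0.12, adjusted p = 0.0758).

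The libraries of 1 group did not carry these genes evenly. In shARF, replicate 1 was the lowest of the 3 for 31 of the 52 genes tested (59.6%), against 34.6% of all genes tested, and it was the highest for 6. Ifit1, Ifi44, Oasl1, Oasl2, Isg15 and Gbp7 were each lowest in shARF replicate 1. In shNT, replicate 1 was likewise lowest for 30 of the 52 (57.7%), against 34.8% of all genes. The members of a library share its depth and preparation, so these counts are a description. Without shARF replicate 1, 25 members were called higher and 11 lower.

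Upstream of these effectors, the 42 other genes of the interferon pathway, from the ligands to the feedback inhibitors, went both ways. Of the 29 tested, 4 were called higher and 12 lower in shARF, against 28.8% higher and 27.7% lower over all genes tested, and their median log2 fold change was -0.09. The number called lower was 14 with upper-quartile scaling and 16 with library sizes alone, with 4 called higher under both. Of 9 interferon genes, 8 had no count in any library, among them Ifnb1, the interferon of fibroblasts, and Ifng, and Ifne had counts in shNT replicate 1 alone. A count of 0 over a group allows up to 0.0225 CPM in shARF and 0.0221 CPM in shNT.

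Among the receptors, Ifnar1 had 101, 110 and 101 CPM in shARF and 122, 123 and 124 CPM in shNT, and fell by 0.24 (adjusted p = 0.002). Its partner Ifnar2 had 46.2 to 52 CPM in shARF and 48.3 to 49.5 CPM in shNT (adjusted p = 0.924). Ifngr1, which binds interferon gamma, had 12.9, 11.5 and 13.8 CPM in shARF and 34.9, 24.4 and 32.4 CPM in shNT, and fell by 1.26 (SE 0.14, adjusted p = 3.07e-04). None of the 5 receptor genes tested was called higher.

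Among the signalling proteins and factors inside the cell, Stat2, which acts with Irf9, fell by 0.50 (9.82 ± 0.494 CPM in shARF, 13.9 ± 0.622 CPM in shNT, adjusted p = 6.23e-04). Irf9 had 10.8, 13.6 and 13.4 CPM in shARF and 14, 13.7 and 12.6 CPM in shNT, and the groups overlapped (adjusted p = 0.483). Jak2 (60.1 ± 2.47 CPM in shARF, 100.3 ± 3.28 CPM in shNT) fell by 0.74, and Stat3 (163 ± 3.01 CPM in shARF, 260.2 ± 7.21 CPM in shNT) by 0.67. Irf1, with 27.9 to 34 CPM in shARF and 26.5 to 29.2 CPM in shNT, and Irf7, the factor that amplifies the response, with 0.647 to 1.09 CPM in shARF and 0.456 to 0.729 CPM in shNT, were not called (adjusted p = 0.115 and 0.0924).

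Of the DNA-sensing branch, Cgas and Tmem173 moved in opposite directions. Cgas, the enzyme that detects cytosolic DNA, had 29.6, 23 and 24.3 CPM in shARF and 12.3, 11 and 8.94 CPM in shNT (1.25, SE 0.14, adjusted p = 3.11e-04). Tmem173, which encodes the adaptor STING that acts next, had 31.6, 32.1 and 31.8 CPM in shARF and 54.1, 55.1 and 56.9 CPM in shNT (-0.80, adjusted p = 4.69e-06). The kinase gene Tbk1 fell by 0.21 (adjusted p = 0.00242), and Irf3 was not called (-0.13, adjusted p = 0.247). Mavs, the adaptor of the RNA sensors, fell by 0.36 (adjusted p = 0.00239). Traf3, a ligase shared by several sensors, rose by 0.66 (adjusted p = 2.71e-05), with 43 to 46.9 CPM in shARF and 28.4 to 28.7 CPM in shNT. Socs1, which shuts off Janus kinases, had 13.6, 13.4 and 14 CPM in shARF and 21.4, 24.7 and 26.4 CPM in shNT, and fell by 0.82 (adjusted p = 1.83e-04).

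**Figure D5:**
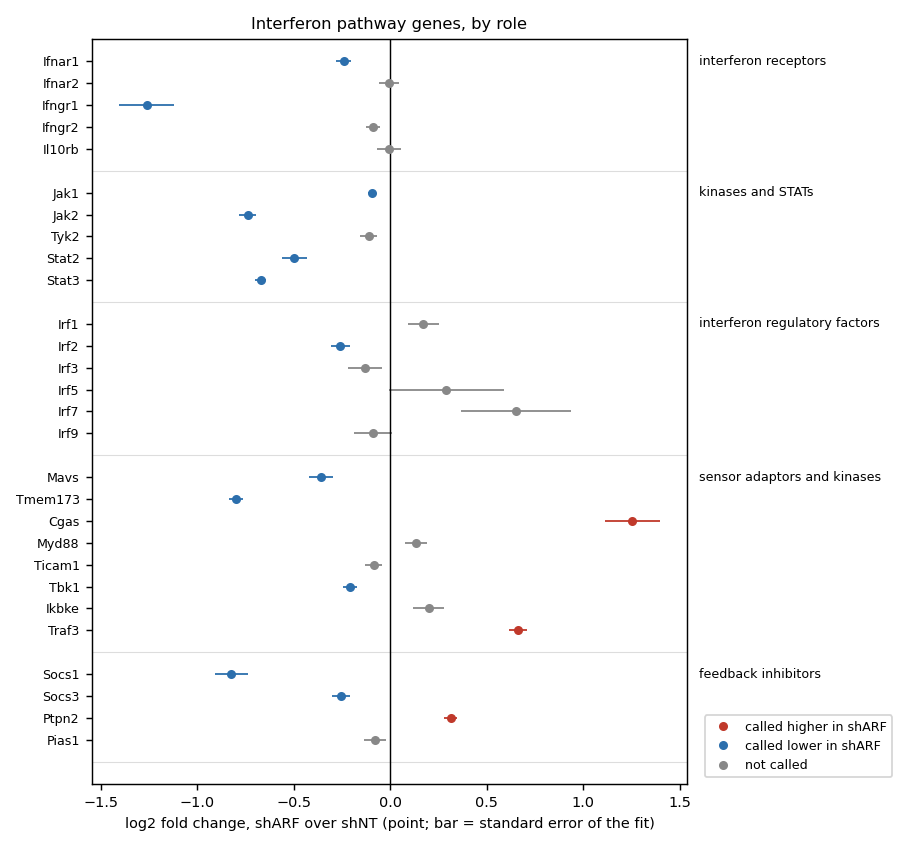
Log2 fold change of shARF over shNT for 28 of the 29 genes of the interferon pathway that were tested, grouped by role, with bars for the standard error of the fit; red points were called higher in shARF, blue points lower and grey points were not called. Cgas and Traf3 lie farthest to the right among the called genes, and Ifngr1, Socs1 and Tmem173 farthest to the left.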

How the data were processed

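The authors deposited raw whole-number counts per gene, with no normalization. Build GRCm38 is listed, per the submitters' processing notes, beside the tools StringTie 1.3.2, DESeq2 1.34.0, HISAT2 2.1.0, Trim Galore 0.4.1, Picard 2.13.2 and SAMtools 0.1.19. Which program counted the reads, with which annotation and strand setting, and whether duplicates were removed, is not stated in these sources, so reads of copies and of overlapping or antisense genes may be mixed. Per the labels' protocols, RNA was depleted of ribosomal RNA and a stranded kit was used. The table's 6 further columns match no sample here and were not used; shARF columns were matched on group, neo tag and replicate number. Symbols and exons came from GENCODE M21 (GRCm38): 54723 of 54752 IDs matched with the version ignored.

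The test was the edgeR 4.0.16 quasi-likelihood F test (glmQLFit, glmQLFTest) in R 4.3.3, two-sided, with group as the sole term, TMM factors, filterByExpr defaults (minimum count 10, minimum total 15), p-values adjusted by Benjamini-Hochberg across 17128 genes, and calls made under 0.05. SEs were the log2 fold change over the root of F. CPM use TMM-scaled library sizes, and FPKM divide by the union of exons. Folds against a group without counts use 3 counts over that group. The fit was tested on simulated counts with 200 genes changed. Far more genes were called in these data, so that test does not cover changes of this extent. Full values are given for members called with a 2-fold change and at least 1 CPM in the higher group, for the 3 of highest FPKM, and for others by choice within families. Of the pathway list, called genes past 1.5-fold and key signalling genes are named; 1 tested gene of that list is counted but not reported here. Members and lists were chosen with earlier results of these data known. Alternatives were DESeq2 1.42.0, limma-voom (limma 3.58.1), other scalings, filters and threshold, a replicate block and each library left out.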

Additional observations from a re-analysis of the deposited data

How the results depend on the processing

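Of 52 members tested, the calls and directions of most held under each alternative run, and the exceptions are given beside their genes. Where genes needed 5 CPM in 3 libraries, 11 members were called higher and 6 lower, against 23 and 12, because that filter leaves 23 members to test. DESeq2, which tested 57 members, called 26 higher and 11 lower, and a replicate block on the same 52 called 23 and 10. With library sizes alone, members split into 22 higher and 14 lower, and all genes into 4023 higher and 5874 lower, against 4930 and 4737. Genes that were not called changed sign: Parp12 was at -0.026, -0.086, -0.0057 and -0.018 with upper quartile, library sizes alone, 1 CPM and 5 CPM filters, and between -0.018 and 0.036 with a library left out. Igtp was at 0.000453 with no filter, 0.00293 with a replicate block and between -0.20 and 0.23 with a library left out, Cmpk2 between -0.17 and 0.84, and Irgm2 between -0.22 and 0.12. Over all genes, same-numbered libraries did not deviate together (correlations -0.09, -0.02 and 0.01), and the main test did not use replicate numbers as pairs. Among the members tested, replicate 1 was the lowest for 59.6% in shARF and for 57.7% in shNT. The correlations over all genes therefore do not settle pairing for the members. With a replicate block the SE fell for Ifit1 (0.20 to 0.08) and Oasl2 (0.32 to 0.18). It rose for Herc6 (0.16 to 0.18) and Oas1b (0.68 to 0.84). Genes under about 0.2 CPM rest on few counts.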
